A study of Mus musculus with 21 samples.

Results

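The matrix metalloproteinases (Mmp), the tissue inhibitors of metalloproteinases (Timp), the ADAMTS proteases (Adamts) and the ADAMTS-like proteins (Adamtsl) were followed through perinatal lung development in sorted epithelial cells and fibroblasts. The members were taken by gene symbol, as every symbol in the deposited tables of the form Mmp, Timp, Adamts or Adamtsl followed by its number. That gave 46 of 25035 genes listed, made up of 18 Mmp, 4 Timp, 19 Adamts and 5 Adamtsl genes. Of these, 43 were listed in the epithelial tables, 43 in the fibroblast tables and 40 in both. All cells came from the lungs of C57BL/6 mice that carried a Col1a2-GFP transgene, so every group shares that transgene and the enzymatic digestion that freed the cells. The 2 cell types were defined by sort gates. Epithelial cells were negative for the lineage antigens CD31, CD45, Ter119 and CD146 and for GFP, and positive for Epcam. Fibroblasts were lineage negative, Epcam negative and GFP positive, so a fibroblast without activity of the Col1a2-GFP transgene would not be in them. Each cell type was sampled with 2 libraries at embryonic day 18.5 (E18.5) and at postnatal days 0.5, 2, 7 and 28 (P0.5, P2, P7 and P28), and fibroblasts also with 1 library at P56. RNA was measured by 3'SAGE-seq, in which 1 tag is read from the 3' end of each transcript, so levels are compared between genes without division by transcript length.

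Mmp enzymes are zinc proteases that cleave matrix proteins and cell-surface proteins, and are made as inactive precursors. Mmp14, Mmp15, Mmp16 and Mmp25 are bound to the membrane, and Mmp14 together with Timp2 activates the precursor of Mmp2. Timp proteins block the active site of Mmp enzymes, and Timp3, which stays bound to the matrix, also blocks several ADAM and ADAMTS proteases. Secreted Adamts proteases fall into enzymes that cleave large proteoglycans such as versican (Adamts1, Adamts4, Adamts5, Adamts8, Adamts9 and Adamts15), procollagen N-proteinases (Adamts2, Adamts3 and Adamts14) and enzymes tied to fibrillin microfibrils (Adamts10 and Adamts17), besides others. Adamtsl proteins share the accessory domains but have no protease domain, and several of them bind microfibrils. The stages sampled span birth and the first weeks after it, in which the mouse lung divides its air spaces into alveoli and thins their walls.

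The sequences just upstream of 4 genes are given because these genes carry the main patterns: Mmp14, the most abundant Mmp; Mmp15, the Mmp seen almost only in epithelium; Mmp3, at or near 0 in fibroblasts until P28; and Timp3, the inhibitor with opposite courses in the 2 cell types. They are RefSeq sequence on the plus strand of build GRCm38.p6, from Mmp14 at chr14:54431348-54431597, Mmp15 at chr8:95352046-95352267, Mmp3 at chr9:7445572-7445821 and Timp3 at chr10:86300162-86300371. For Mmp14 and Mmp3 they run to the last base before the RefSeq start. For Mmp15 and Timp3 they stop before a transcript start in the GENCODE annotation that lies upstream of the RefSeq start. Capitals mark matches to 4 motifs searched on both strands, the AP-1 motif TGANTCA, the GC box GGGCGG, the TATA motif TATAAA and the CCAAT motif. The genes and motifs were chosen after the values were seen.
Mmp14: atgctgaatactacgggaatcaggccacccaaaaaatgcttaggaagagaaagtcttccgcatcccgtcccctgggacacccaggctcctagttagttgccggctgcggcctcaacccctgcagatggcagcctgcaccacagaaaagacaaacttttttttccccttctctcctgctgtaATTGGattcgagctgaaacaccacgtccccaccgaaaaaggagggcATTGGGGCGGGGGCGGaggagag
Mmp15: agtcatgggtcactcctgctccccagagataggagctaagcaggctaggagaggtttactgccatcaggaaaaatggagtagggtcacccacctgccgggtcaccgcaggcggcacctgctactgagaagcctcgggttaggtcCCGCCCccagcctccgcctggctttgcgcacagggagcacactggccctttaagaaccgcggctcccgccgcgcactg
Mmp3: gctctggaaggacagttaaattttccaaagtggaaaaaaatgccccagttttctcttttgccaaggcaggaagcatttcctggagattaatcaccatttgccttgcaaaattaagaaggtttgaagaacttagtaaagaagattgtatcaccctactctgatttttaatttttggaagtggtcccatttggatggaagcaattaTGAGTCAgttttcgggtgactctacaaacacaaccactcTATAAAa
Timp3: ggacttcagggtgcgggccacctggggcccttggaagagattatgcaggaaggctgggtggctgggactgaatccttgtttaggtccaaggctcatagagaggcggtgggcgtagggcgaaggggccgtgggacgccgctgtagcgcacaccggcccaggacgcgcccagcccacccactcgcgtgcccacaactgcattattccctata
The Mmp14 sequence holds 2 GC boxes, which begin 19 and 13 bases before the RefSeq start, and 2 reverse matches to CCAAT, at 69 and 23 bases, of which the nearer overlaps a GC box. The Mmp15 sequence holds 1 GC box on the reverse strand at 106 bases, counted to a RefSeq start that lies downstream of the printed end. The Mmp3 sequence holds an AP-1 match at 46 bases and a TATA match at 7 bases. The 210 bases printed for Timp3 held no match, although its full window of 250 bases before the RefSeq start, counted below, holds a GC box. Windows of 250 bases were matched for 31 of the 46 members. Of those, 3 held the AP-1 motif (Mmp3, Mmp12 and Mmp13), against 7.82% of all 27025 promoters of that length. A GC box was present in 20 of the 31 (35.4% of all promoters), TATAAA in 5 (14.3%) and CCAAT in 6 (37.5%). A match describes the letters and shows no binding.

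The 21 libraries held between 2146071 and 5729829 reads, recovered from the deposited values. The sort markers followed the labels: Epcam lay between 46.4 and 354 normalised tag counts in epithelium and did not exceed 0.399 in fibroblasts, and Col1a2 lay between 3.48 and 62.4 in epithelium and between 1241 and 3317 in fibroblasts. Leukocyte RNA differed between epithelial stages: the summed level of the 7 listed leukocyte markers lay between 30.8 and 465 up to P7 and was 1664 and 1535 in the P28 libraries, although CD45-positive cells had been depleted. Replicates carry numbers in the labels, but nothing says that they came from different animals. The p values therefore reflect the spread between these libraries alone, which may be technical. Adjusted p values are from limma with Benjamini-Hochberg adjustment over all genes tested, and a gene is said to rise, fall or differ only where its adjusted p was under 0.05.

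Across the 5 stages with both cell types, most members differed between epithelium and fibroblasts, and most of those were higher in fibroblasts. Of 32 members tested, 28 differed, 6 higher in epithelium and 22 higher in fibroblasts, against 62.4% of all genes tested (32.5% higher in epithelium and 29.9% lower). The median member difference, epithelium minus fibroblasts, was -1.88 on the log2 scale, beside 0.01 over all genes. All 12 Adamts genes that differed were higher in fibroblasts, out of 13 tested. The Mmp genes were mixed, with 3 higher in epithelium and 5 higher in fibroblasts of 10 tested, as were the Adamtsl genes, with 2 each way of 5. In such bulk libraries, fewer cells of a type and less RNA per cell cannot be told apart.

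**Figure D1:**
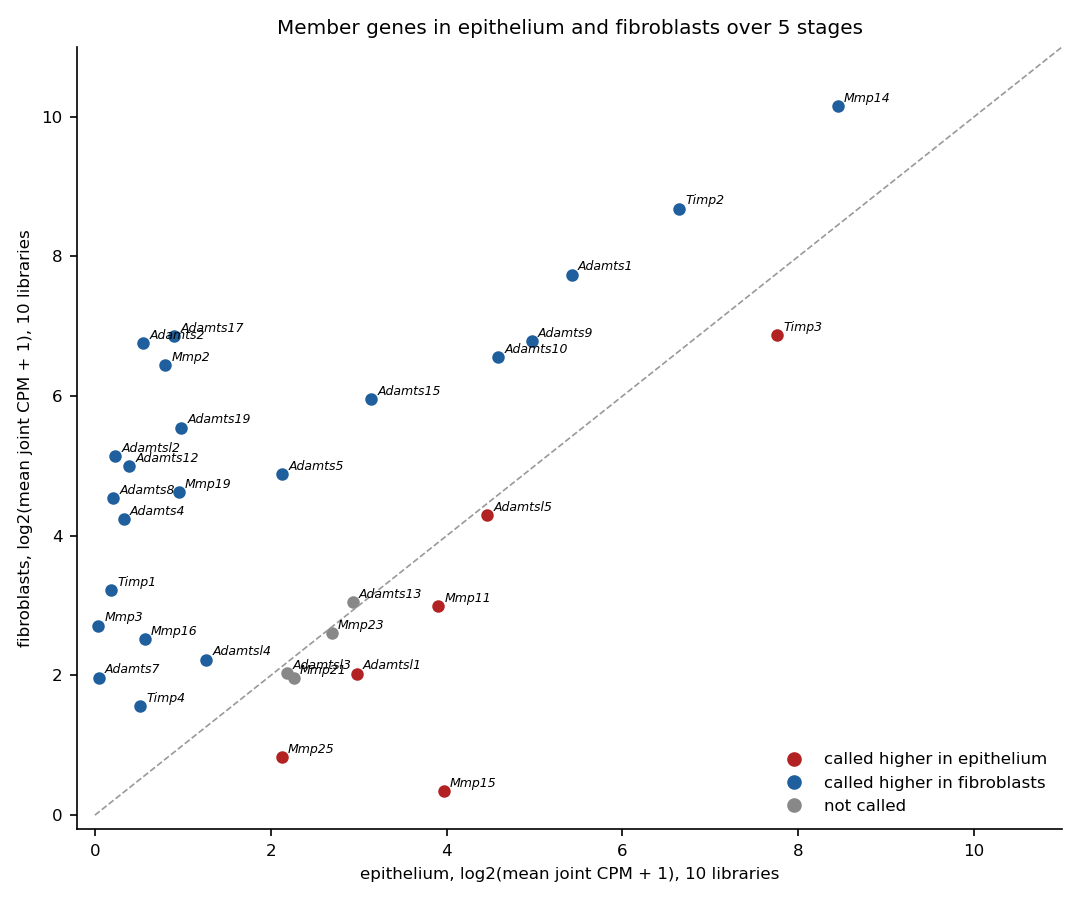
Mean level of the 32 tested members in epithelium (horizontal axis) and fibroblasts (vertical axis), both as log2(CPM + 1), with CPM the tag counts scaled to a common library total, over the 10 libraries of each cell type from E18.5 to P28. Red points are the 6 members higher in epithelium, blue points the 22 higher in fibroblasts and grey points the 4 that did not differ, and the dashed line marks equal levels; Mmp14 stands at the upper right, above the line.

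With tag counts of both cell types scaled to a common library total (CPM), Mmp2, the gelatinase that Mmp14 activates, ranged from 0 to 2.42 CPM in the epithelial libraries (median 0.511) and from 22.2 to 149 CPM in the fibroblast libraries (median 103). The ranges did not overlap, and the difference was -5.44 ± 0.16 (SE) on the log2 scale (adjusted p = 1.67e-17). Adamts2, the main procollagen N-proteinase, had a median of 0 CPM in epithelium, with a highest value of 4.35, and 69.3 to 215 CPM in fibroblasts (log2 difference -6.38 ± 0.19, adjusted p = 1.98e-17). Adamts17, a microfibril-linked enzyme, reached at most 3.32 CPM in epithelium and ranged from 35.6 to 228 CPM in fibroblasts (log2 difference -5.90 ± 0.15, adjusted p = 1.12e-18). These genes marked the fibroblast libraries at every stage. Adamts1, Adamts9, Adamts10 and Adamts15 also did not overlap between the cell types, but were measured in every epithelial library. Adamts1, for example, lay between 18.6 and 90.7 CPM in epithelium (median 31.4) and between 142 and 303 CPM in fibroblasts (median 195; log2 difference -2.51 ± 0.09, adjusted p = 1.66e-16). Mmp15, a membrane-type Mmp, was the reverse, with 3.80 to 25.4 CPM in epithelium (median 14.8) and 0 to 1.01 CPM in fibroblasts (log2 difference 3.49 ± 0.19, adjusted p = 3.39e-13). Of the members listed in both cell types, it was the only one whose epithelial libraries all lay above all fibroblast libraries up to P28.

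Mmp14 and Timp2 were among the 3 members with the highest medians in both cell types. Mmp14 ranged from 49.9 to 751 CPM in epithelium (median 333) and from 424 to 1686 CPM in fibroblasts (median 1109.5). Its ranges overlapped, and it averaged lower in epithelium (log2 difference -2.04 ± 0.08, adjusted p = 3.01e-15). Timp2 ranged from 54.8 to 129 CPM in epithelium (median 99.1) and from 77.4 to 970.0 CPM in fibroblasts (median 305), again with overlap (log2 difference -1.68 ± 0.10, adjusted p = 1.11e-12). Timp3 was higher in epithelium on average, at 119.6 to 417 CPM (median 175) against 49.7 to 401 CPM (median 59.8; log2 difference 1.20 ± 0.09, adjusted p = 2.93e-10), and its ranges overlapped, with the fibroblast P28 libraries above those of earlier stages. Adamtsl1 (1.43 ± 0.23, adjusted p = 1.19e-05), Mmp25 (0.90 ± 0.21, adjusted p = 7.66e-04), Mmp11 (0.86 ± 0.21, adjusted p = 0.00102) and Adamtsl5 (0.85 ± 0.19, adjusted p = 6.87e-04) were the others higher in epithelium on average over the stages. At P28 this order did not hold for Adamtsl5, at 13.1 and 8.27 CPM in epithelium and 64.2 and 66.9 CPM in fibroblasts. It did not hold for Timp3 either, at 179 and 143 CPM in epithelium and 265 and 401 CPM in fibroblasts at P28. For Adamtsl1 the P28 values overlapped, at 4.23 and 14.3 CPM against 6.66 and 15.7 CPM. Mmp11 overlaps Chchd10 on the opposite strand. Chchd10 lay between 64.5 and 175 normalised tag counts in epithelium and did not exceed 2.25 in fibroblasts up to P28. Without the counting strand, tags of Mmp11 and Chchd10 cannot be told apart where they overlap. Mmp21, Mmp23, Adamts13 and Adamtsl3 did not pass the test. The calls for Mmp3 and Timp4, both lower in epithelium and near 0 there, were not made by edgeR on the reads (adjusted p = 1 for each).

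Over time, the fibroblast members moved mostly between P7 and P28, and mostly upward. In fibroblasts, 19 of 30 tested members changed from P7 to P28, 14 higher and 5 lower, against 20.8% of all genes tested (11.3% higher and 9.49% lower). All 4 Timp genes and all 5 Adamtsl genes tested rose in that step, while the 7 of 13 Adamts genes that changed were split, 4 higher and 3 lower, and the 3 of 8 Mmp genes that changed were 1 higher and 2 lower. Without P7 replicate 1 the rises were 2 of 4 Timp (Timp2 and Timp3) and 2 of 5 Adamtsl genes (Adamtsl2 and Adamtsl5). Without P28 replicate 1 they were 2 of 4 and 3 of 4, and without P28 replicate 2 they were 3 of 4 and 2 of 4, since Adamtsl1 then left the test. From E18.5 to P28 the fibroblast count was 20 of 30, 16 higher and 4 lower, against 33.6% of all genes (18.7% higher and 14.9% lower), with a median member difference of 1.08 on the log2 scale beside 0.01 over all genes. Across birth, from E18.5 to P0.5, 12 of 30 changed, 8 higher and 4 lower, against 15.4% of all genes (8.05% higher and 7.34% lower). From P0.5 to P2 the count was 10, 5 each way, against 16.9% (9.74% higher and 7.2% lower). From P2 to P7 it was 5, 3 higher and 2 lower, against 6.64% (2.36% higher and 4.28% lower). Marker sums of other cell types also moved in the fibroblast libraries from P7 to P28: summed leukocyte markers were 3.68 and 0 at P7 and 55.5 and 167 at P28. Summed pericyte and smooth muscle markers were 115 and 133 at P7 and 28.9 and 30.7 at P28. That fall was mostly the fall of the gene Acta2, given below with Mmp14. The part of these markers in the members' changes was not tested.

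In epithelium, 11 of 19 tested members changed from E18.5 to P28, 5 higher and 6 lower, against 24.9% of all genes tested (13.5% higher and 11.3% lower), and the median member difference was 0.13. Across birth 3 of 19 changed, 1 higher and 2 lower, a share near the 14.3% of all genes (7.24% higher and 7.09% lower). From P0.5 to P2 the epithelial count was 2, 1 each way, also near the 8.82% of all genes (5.13% higher and 3.69% lower). From P2 to P7 it was 3, 1 higher and 2 lower, against 3.71% (1.55% higher and 2.17% lower), and from P7 to P28 it was 5, 2 higher and 3 lower, against 7.28% (4.87% higher and 2.41% lower). The summed fibroblast markers in the epithelial libraries also differed between stages, at 396 and 380.0 at E18.5, 166 and 157 at P7, and 2302 and 2385 at P28. Nearly all of the P28 sum was Vim, at 2271 and 2346, while Col1a1 was 1.54 and 0.288 and Lum was 0 there. Their part in the members' changes was not tested. Of the members that changed in both cell types from E18.5 to P28, Adamts1, Mmp14 and Timp2 went the same way. Timp3 and Adamtsl5 went opposite ways. The matching shares over all genes were not computed. The calls of Adamts1 in fibroblasts and of Timp2 and Timp3 in epithelium were lost without single libraries, as given below.

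Several of these counts were lower when 1 library was left out, in some steps whichever library it was. Such fits also have fewer residual degrees of freedom. The shares of all genes called in them are not given here, so the drops cannot be read as particular to the members. In fibroblasts the count across birth was 7 without E18.5 replicate 2, 6 without P0.5 replicate 1 and 7 without P0.5 replicate 2. From P0.5 to P2 it was 5 without P0.5 replicate 1, 4 without P0.5 replicate 2, and 5 without either P2 library. From P2 to P7 it was 3 without P2 replicate 1, and from P7 to P28 it was 12 without P7 replicate 1 and 12 without P28 replicate 1. In epithelium the count from P0.5 to P2 was 1 without P0.5 replicate 1, without P0.5 replicate 2 or without P2 replicate 1, and from P7 to P28 it was 3 without P7 replicate 2, 2 without P28 replicate 1 and 3 without P28 replicate 2.

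**Figure D2:**
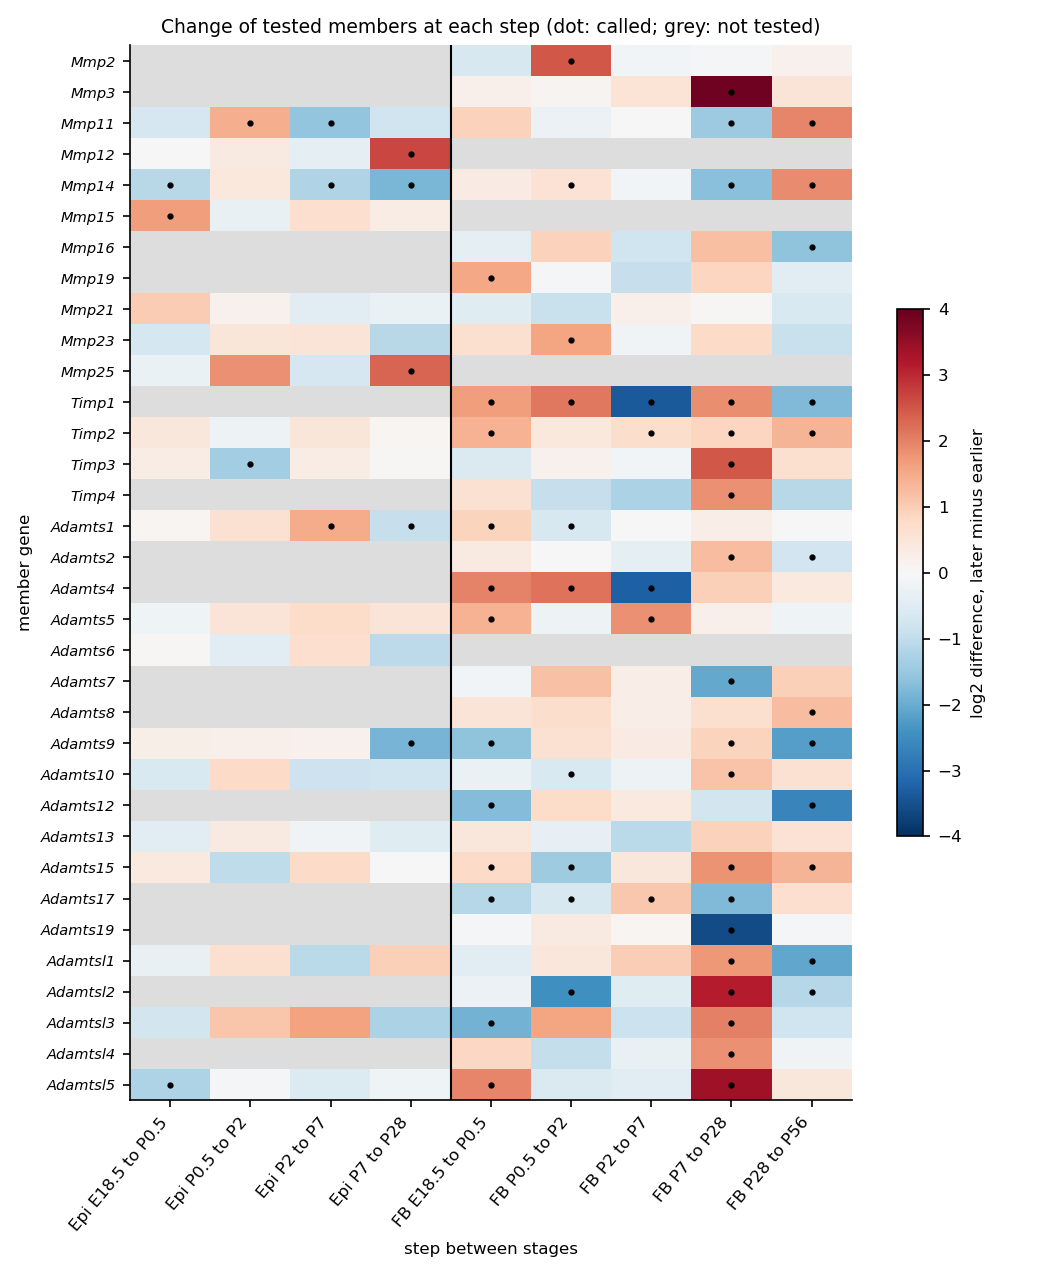
Change of each of the 34 members tested in at least 1 cell type at each step, as a log2 difference of normalised tag counts + 1 (colour, limited to 4 either way), with epithelial and fibroblast steps as columns. A dot marks an adjusted p under 0.05 and grey marks a member not tested in that cell type; the fibroblast step from P7 to P28 has the most dots, 19.

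Mmp14, the membrane-type enzyme that cleaves fibrillar collagen and activates Mmp2, fell through epithelial development and followed another course in fibroblasts. The gene lies at GRCm38 chromosome 14, 54431612 to 54445364, on the plus strand. In epithelium its normalised tag counts were 768 and 741 at E18.5, 309 and 389 at P0.5, 531 and 404 at P2, 196 and 202 at P7, and 57.9 and 52.1 at P28. The E18.5 libraries were above all later ones and the P28 libraries below all earlier ones. Epithelial Mmp14 fell across birth (-1.12 ± 0.18, adjusted p = 0.0016), from P2 to P7 (-1.21 ± 0.18, adjusted p = 0.00203) and from P7 to P28 (-1.84 ± 0.18, adjusted p = 1.62e-05). Over the whole course its log2 difference was -3.76 ± 0.18 (adjusted p = 6.29e-09). The mesothelial marker Msln also lay lower at each later stage in these libraries, from 428 and 444 at E18.5 to 1.16 and 3.46 at P28, while the mesothelial markers Upk3b and Lrrn4 stayed between 0 and 0.864. Its part in the Mmp14 values was not tested.

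In fibroblasts Mmp14 was 902 and 931 at E18.5, 1112 and 1182 at P0.5, 1759.9 and 1691 at P2, 1744 and 1481 at P7, 433 and 597 at P28, and 1869 in the single P56 library. The P2 and P7 libraries were the highest of the replicated stages, and the P28 libraries lay below all others. Mmp14 fell from P7 to P28 (-1.66 ± 0.18, adjusted p = 2.29e-06) and from E18.5 to P28 (-0.85 ± 0.18, adjusted p = 0.00134). The rise from P0.5 to P2 (0.59 ± 0.18, adjusted p = 0.0324) was lost when any of the 4 libraries was left out (adjusted p from 0.12 to 0.175). The smooth muscle gene Acta2 was also lower at P28: it was 129 and 143 at P2, 95.8 and 109 at P7, and 9.45 and 16.0 at P28. Acta2 made up most of the summed pericyte and smooth muscle markers at P7 (115 and 133, against 28.9 and 30.7 at P28). The fall of that sum was thus mostly the fall of Acta2. The part of Acta2 in the Mmp14 values was not tested. Mmp14 made up 95.6% of the summed Mmp level in epithelium at E18.5 and 47.0% at P28, and 93.4% and 71.0% at the same stages in fibroblasts.

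Among the secreted fibroblast enzymes, Mmp2 and Mmp3 rose at different stages. Mmp2 (GRCm38 chromosome 8, 92827291 to 92853420) was 37.1 and 37.1 at E18.5, 23.0 and 24.0 at P0.5, 158 and 116 at P2, 138 and 112 at P7, 145 and 101 at P28, and 135 at P56. All libraries from P2 on were above all E18.5 and P0.5 libraries. The rise from P0.5 to P2 was 2.48 ± 0.23 on the log2 scale (adjusted p = 6.46e-07), and that from E18.5 to P28 was 1.68 ± 0.23 (adjusted p = 1.36e-05). Mmp3, the stromelysin that cleaves proteoglycans and laminin and can activate other Mmp precursors, lies at GRCm38 chromosome 9, 7445822 to 7455975. It was 0 in both E18.5 libraries, at most 0.548 at P0.5 and P2, 0.263 and 1.67 at P7, 21.9 and 31.9 at P28, and 38.0 at P56. With 154 reads at P28 and 3 reads over the E18.5 group as the limit that 0 allows, it was at least 53.0-fold higher at P28. It rose from P7 to P28 (3.90 ± 0.52, adjusted p = 2.21e-05; 0.00455 with no filter on low values), and it entered the test only through its P28 and P56 libraries. In epithelium Mmp3 was above 0 in only 1 of 10 libraries.

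Mmp19, a secreted Mmp, was 13.5 and 8.10 at E18.5 in fibroblasts, 28.9 and 36.7 at P0.5, 27.4 and 35.7 at P2, 11.3 and 22.5 at P7, 26.3 and 34.3 at P28, and 22.3 at P56. The P28 libraries were above both E18.5 libraries (1.43 ± 0.34, adjusted p = 0.00274). The rise across birth (1.55 ± 0.34, adjusted p = 0.00404) was lost without E18.5 replicate 2 (adjusted p = 0.0625) or P0.5 replicate 2 (adjusted p = 0.0753). Mmp23, a small Mmp with an unusual membrane anchor, was 0.843 and 0.427 at E18.5, 1.26 and 1.87 at P0.5, 8.89 and 4.94 at P2, 6.56 and 5.43 at P7, 8.27 and 14.0 at P28, and 5.37 at P56. All its libraries from P2 on lay above all earlier ones, and it rose from E18.5 to P28 (2.86 ± 0.46, adjusted p = 8.63e-05). In epithelium Mmp23 did not exceed 10.1 and no step passed the test. Mmp16, a membrane-type Mmp, ranged from 2.09 to 12.0 in the fibroblast libraries up to P28 with no change past the test.

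The Mmp genes that rose in epithelium were Mmp15, Mmp25 and Mmp12. Mmp15 (GRCm38 chromosome 8, 95352268 to 95375080) was 3.89 and 4.42 at E18.5, 14.0 and 16.7 at P0.5, 13.2 and 11.5 at P2, 20.7 and 19.9 at P7, and 23.9 and 26.5 at P28. All libraries after birth were above both E18.5 libraries. The rise across birth was 1.66 ± 0.28 on the log2 scale (adjusted p = 0.00198) and that from E18.5 to P28 was 2.35 ± 0.28 (adjusted p = 4.33e-05). Mmp11, or stromelysin 3, moved the other way over the course: it was 14.6 and 20.2 at E18.5, 8.45 and 12.7 at P0.5, 25.5 and 36.3 at P2, 7.28 and 12.3 at P7, and 5.79 and 4.32 at P28. The P2 libraries were the highest and the P28 libraries the lowest. It fell from E18.5 to P28 (-1.60 ± 0.36, adjusted p = 0.00449). The rise from P0.5 to P2 (1.47 ± 0.36, adjusted p = 0.0226) was lost without any of its 4 libraries (adjusted p from 0.0516 to 0.177), and the fall from P2 to P7 (-1.58 ± 0.36, adjusted p = 0.0253) without P2 replicate 1 (adjusted p = 0.0524), P2 replicate 2 (adjusted p = 0.116) or P7 replicate 1 (adjusted p = 0.209). In fibroblasts Mmp11 was 10.5 and 6.68 at P7, 2.07 and 2.79 at P28 and 12.2 at P56, and its fall from P7 to P28 (-1.46 ± 0.50, adjusted p = 0.0448) was lost without any of the 4 libraries (adjusted p from 0.0698 to 0.26). Mmp11 overlaps Chchd10 on the opposite strand, and whether tags were counted by strand was not stated in the labels.

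Mmp25, a membrane-type Mmp best known from neutrophils, was 0 and 0.947 at E18.5, 0.367 and 0 at P0.5, 2.28 and 4.28 at P2, 3.36 and 0.560 at P7, and 11.2 and 13.0 at P28 in epithelium. Both P28 libraries were above all others, and the difference from E18.5 was 3.23 ± 0.56 (adjusted p = 7.77e-04). The rise from P7 to P28 (2.32 ± 0.56, adjusted p = 0.0195) was lost without P7 replicate 2 (adjusted p = 0.232), P28 replicate 1 (adjusted p = 0.108) or P28 replicate 2 (adjusted p = 0.159). Mmp12, the macrophage elastase, was 0 in both libraries at E18.5, P0.5 and P7, 0 and 0.659 at P2, and 6.18 and 4.61 at P28. From 32 reads at P28, it was at least 16.1-fold higher than at P7 and at least 11.2-fold higher than at E18.5, and limma gave 2.67 ± 0.50 for each (adjusted p = 0.0037 and 0.00139). Mmp12 entered that test only through its 2 P28 libraries, and it was not tested without either of them; with no filter on low values the adjusted p was 8.65e-04 and 4.3e-04. Leukocyte markers stood higher in the same P28 libraries: Tyrobp was 703 and 642 there against 0.187 and 0 at P7, Cd53 was 334 and 392 against 0 and 1.96, and Ptprc, which encodes CD45, was 12.4 and 21.3 against 0 in both. The macrophage gene Chil3 was 12.0 and 17.0 at P28 and 0 in both P7 libraries. Summed over all 8 macrophage markers, the level was 80.1 and 199 at E18.5, 25.6 and 12.9 at P7, and 68.7 and 75.5 at P28. The 5 listed neutrophil markers summed to 54.0 and 68.7 at P0.5, 1.82 and 157 at P2, 1.12 and 1.12 at P7, and 13.9 and 11.2 at P28. The sum of the 7 listed leukocyte markers was highest at P28, at 1664 and 1535. The macrophage and neutrophil sums were higher at an earlier stage than at P28. The part of this RNA in the Mmp12 and Mmp25 values was not tested.

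**Figure D3:**
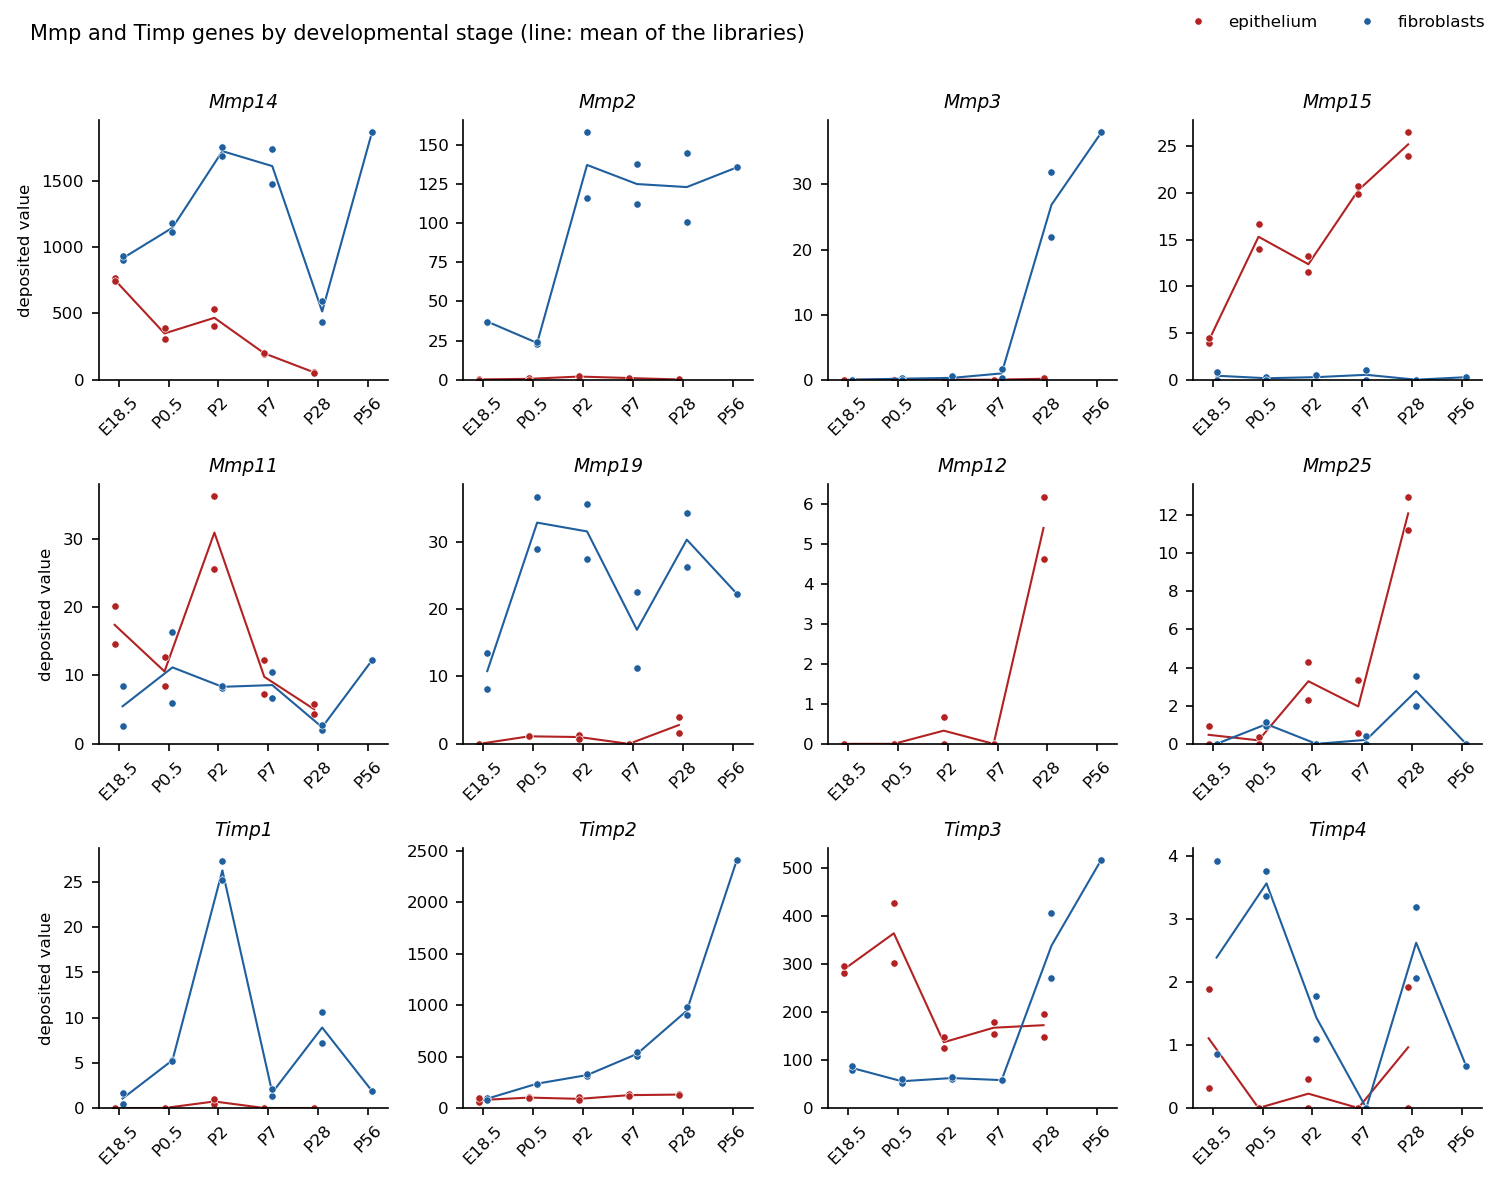
Normalised tag counts of 8 Mmp and the 4 Timp genes by stage, on linear axes that start at 0 and differ between panels; red is epithelium, blue is fibroblasts, points are libraries and lines join stage means. Mmp14 falls to 57.9 and 52.1 in epithelium at P28, and fibroblast Timp2 climbs from 99.7 and 81.9 at E18.5 to 2405 in the single P56 library.

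The inhibitors rose in fibroblasts, and Timp2 did so at most steps. Timp2 (GRCm38 chromosome 11, 118301069 to 118355740, minus strand) was 99.7 and 81.9 at E18.5, 238 and 235 at P0.5, 314 and 326 at P2, 503 and 547 at P7, 908 and 983 at P28, and 2405 at P56. No 2 stages overlapped. Timp2 rose across birth (1.38 ± 0.17, adjusted p = 2.11e-05), from P7 to P28 (0.85 ± 0.17, adjusted p = 0.00142) and over the whole course (3.37 ± 0.17, adjusted p = 4.46e-11). The rise from P2 to P7 (0.71 ± 0.17, adjusted p = 0.0153) was lost without P2 replicate 1 (adjusted p = 0.144), P2 replicate 2 (adjusted p = 0.0822) or P7 replicate 2 (adjusted p = 0.0728). In epithelium Timp2 was 56.1 and 97.5 at E18.5 and 137 and 124 at P28. That rise (0.81 ± 0.25, adjusted p = 0.0273) was lost without E18.5 replicate 1 (adjusted p = 0.294), P28 replicate 1 (adjusted p = 0.127) or P28 replicate 2 (adjusted p = 0.0745).

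Timp3, the matrix-bound inhibitor at GRCm38 chromosome 10, 86300372 to 86349506, lay within the gene Syn3. In fibroblasts it was 79.5 and 87.4 at E18.5, 51.3 and 60.3 at P0.5, 61.1 and 63.6 at P2, 57.8 and 58.5 at P7, 270.5 and 406 at P28, and 518 at P56. The P28 and P56 libraries were above all others, with a rise of 2.49 ± 0.21 from P7 to P28 (adjusted p = 7.69e-08). In epithelium Timp3 was 281 and 297 at E18.5, 302 and 426 at P0.5, 125 and 149 at P2, 180.1 and 154 at P7, and 196 and 149 at P28. The E18.5 and P0.5 libraries were above all later ones, and Timp3 fell from P0.5 to P2 (-1.39 ± 0.21, adjusted p = 0.00209). The fall from E18.5 to P28 (-0.75 ± 0.21, adjusted p = 0.0156) was lost without E18.5 replicate 1 (adjusted p = 0.0536), E18.5 replicate 2 (adjusted p = 0.0718) or P28 replicate 2 (adjusted p = 0.146).

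Timp1, the inducible inhibitor, peaked in fibroblasts at P2. It was 1.69 and 0.427 at E18.5, 5.35 and 5.24 at P0.5, 27.4 and 25.2 at P2, 1.31 and 2.09 at P7, 10.6 and 7.18 at P28, and 1.88 at P56. The P2 libraries were above all others, with a rise from P0.5 (2.12 ± 0.45, adjusted p = 0.00292) and a fall to P7 (-3.35 ± 0.45, adjusted p = 1.02e-04). Timp1 at P28 was above E18.5 (2.32 ± 0.45, adjusted p = 5.02e-04). Its rise across birth (1.69 ± 0.45, adjusted p = 0.015) was lost without E18.5 replicate 2 (adjusted p = 0.15), P0.5 replicate 1 (adjusted p = 0.0933) or P0.5 replicate 2 (adjusted p = 0.0997). The rise from P7 to P28 (1.87 ± 0.45, adjusted p = 0.00526) was lost without P7 replicate 1 (adjusted p = 0.0507) or P28 replicate 1 (adjusted p = 0.064). In epithelium Timp1 was above 0 only in the 2 P2 libraries, at 0.456 and 0.989. Timp4, the least abundant inhibitor, did not exceed 3.93 in fibroblasts. It was 0 in both P7 libraries and 2.07 and 3.19 at P28, at least 5.50-fold higher from 15 reads. Timp4 lies within Syn2, whose exons overlap it on the opposite strand, and Syn2 was 0.525 and 0 at P7 and 7.68 and 5.18 at P28, so tags of the 2 cannot be told apart where they overlap. The Timp4 rise (1.84 ± 0.54, adjusted p = 0.0211) was lost without any of the 4 libraries (adjusted p from 0.0557 to 0.128).

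Summed over the family, the Timp level in fibroblasts was 185 and 171 at E18.5 and 1191 and 1399 at P28. The summed Mmp level was 971 and 991 at E18.5, 1970.3 and 1869 at P2, and 652 and 799 at P28. The summed Timp level thus lay below the summed Mmp level in every fibroblast library up to P7 and above it in both at P28. At P56 the sums were 2926 for Timp and 2089 for Mmp. In epithelium the Mmp sums were 801 and 779 at E18.5, 344 and 434 at P0.5, 583 and 475 at P2, 244 and 247 at P7, and 118 and 116 at P28. The epithelial Timp sums were 338 and 396, 408 and 523, 228 and 225, 317 and 267, and 335 and 273 at the same stages. The Timp sum was thus below the Mmp sum at E18.5 and P2 and above it at P0.5, P7 and P28. These sums describe RNA and carry no test.

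Of the proteoglycan-cleaving enzymes, Adamts1 was the most abundant in epithelium by P7 and stood high in fibroblasts throughout. In epithelium Adamts1 (GRCm38 chromosome 16, 85793827 to 85803113, minus strand) was 20.1 and 21.5 at E18.5, 19.5 and 24.3 at P0.5, 32.8 and 34.3 at P2, 95.3 and 95.4 at P7, and 44.4 and 55.3 at P28. The P7 libraries were above all others, and the rise from P2 to P7 was 1.48 ± 0.22 (adjusted p = 0.002). At P28 it was above E18.5 by 1.22 ± 0.22 (adjusted p = 0.0011). The fall from P7 to P28 (-0.93 ± 0.22, adjusted p = 0.018) was lost without P7 replicate 1 (adjusted p = 0.11), P7 replicate 2 (adjusted p = 0.103) or P28 replicate 1 (adjusted p = 0.165). In fibroblasts Adamts1 was 179 and 150.1 at E18.5, 313 and 302 at P0.5, 193 and 205 at P2, 190.1 and 203 at P7, 210.0 and 260.4 at P28, and 239 at P56. The P0.5 libraries were the highest, and the rise across birth was 0.90 ± 0.18 (adjusted p = 0.00235). The fall from P0.5 to P2 (-0.63 ± 0.18, adjusted p = 0.0224) was lost without any of its 4 libraries (adjusted p from 0.0858 to 0.141). The difference from E18.5 to P28 (0.51 ± 0.18, adjusted p = 0.0379) was lost without E18.5 replicate 2 (adjusted p = 0.241) or P28 replicate 2 (adjusted p = 0.229).

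Adamts4, an aggrecanase, peaked at P2 in fibroblasts. It was 0.843 and 5.12 at E18.5, 13.8 and 10.9 at P0.5, 46.2 and 75.7 at P2, 2.89 and 9.19 at P7, 10.6 and 11.6 at P28, and 14.8 at P56. The P2 libraries were above all others, and the fall from P2 to P7 was -3.26 ± 0.50 (adjusted p = 4.37e-04; 0.0759 with no filter on low values). The rise from P0.5 to P2 (2.18 ± 0.50, adjusted p = 0.00562) was lost without P0.5 replicate 2 (adjusted p = 0.0767) or P2 replicate 2 (adjusted p = 0.0787). Adamts5, the other main aggrecanase, lies 53059 bases from Adamts1 on the same strand and rose at another stage. In fibroblasts it was 7.58 and 3.84 at E18.5, 20.1 and 12.7 at P0.5, 15.6 and 12.3 at P2, 49.6 and 53.4 at P7, 57.9 and 61.0 at P28, and 52.4 at P56. All libraries from P7 on were above all earlier ones (P2 to P7, 1.82 ± 0.31, adjusted p = 0.00112; E18.5 to P28, 3.23 ± 0.31, adjusted p = 2.25e-07). In epithelium it ranged from 0.324 to 11.6, and the difference from E18.5 to P28 did not pass the test (1.57 ± 0.62, adjusted p = 0.0815).

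Adamts9, a versican-cleaving enzyme, fell in fibroblasts across birth and stood high again at P28. Its fibroblast values were 139 and 171 at E18.5, 48.8 and 50.9 at P0.5, 80.0 and 74.3 at P2, 79.6 and 120.3 at P7, 214 and 154 at P28, and 38.7 at P56. The E18.5 and P28 libraries were above all others, and the fall across birth was -1.61 ± 0.23 (adjusted p = 9.65e-05). The rise from P7 to P28 (0.88 ± 0.23, adjusted p = 0.00987) was lost without P7 replicate 1 (adjusted p = 0.142) or P28 replicate 1 (adjusted p = 0.134). In epithelium Adamts9 was 25.9 and 31.6 at E18.5, 49.3 and 40.8 at P7, and 9.65 and 14.1 at P28. The P28 libraries were below all others, with a fall from P7 of -1.85 ± 0.25 (adjusted p = 2.66e-04) and from E18.5 of -1.22 ± 0.25 (adjusted p = 0.00263). Adamts9 overlaps the antisense transcript A730049H05Rik. In fibroblasts that transcript was 31.7 and 24.3 at E18.5 and 107 and 113 at P0.5, opposite to Adamts9 across birth. It was 33.3 and 52.2 at P7, 197 and 169 at P28 and 21.5 at P56, in the same direction as Adamts9 at both of these steps. In epithelium it was 15.9 and 24.3 at E18.5 and 2.32 and 1.15 at P28, also in the direction of Adamts9. Without the counting strand, tags of the 2 cannot be told apart where they overlap.

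Adamts8 and Adamts15, further members of the proteoglycanase group, lie 20109 bases apart on chromosome 9 on opposite strands, and both stood higher in fibroblasts at P28. Adamts8 was 9.55 and 8.53 at E18.5, 11.3 and 15.3 at P0.5, 27.0 and 18.4 at P2, 28.4 and 25.5 at P7, 49.6 and 35.9 at P28, and 101 at P56. The P28 libraries lay above those of all earlier stages (E18.5 to P28, 2.11 ± 0.29, adjusted p = 1.53e-05). Adamts15 was 35.4 and 50.3 at E18.5, 82.4 and 64.4 at P0.5, 27.7 and 25.5 at P2, 32.6 and 41.8 at P7, 166 and 104 at P28, and 338 at P56. It fell from P0.5 to P2 (-1.42 ± 0.26, adjusted p = 8.2e-04) and rose from P7 to P28 (1.81 ± 0.26, adjusted p = 4.44e-05). Its rise across birth (0.77 ± 0.26, adjusted p = 0.0485) was lost without E18.5 replicate 1 (adjusted p = 0.285), P0.5 replicate 1 (adjusted p = 0.301) or P0.5 replicate 2 (adjusted p = 0.104), and with the replicate number as a block (adjusted p = 0.0525). In epithelium Adamts8 did not exceed 0.560, and Adamts15 ranged from 2.73 to 12.1 with no change past the test.

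The fibroblast Adamts genes that fell from E18.5 to P28 were Adamts17, Adamts19 and Adamts12. Adamts17 (GRCm38 chromosome 7, 66839735 to 67153171) was 237 and 235 at E18.5, 108 and 106 at P0.5, 65.4 and 69.9 at P2, 125 and 169 at P7, 36.3 and 48.3 at P28, and 67.7 at P56. The E18.5 libraries were the highest and the P28 libraries the lowest. It fell across birth (-1.13 ± 0.21, adjusted p = 0.00116), from P7 to P28 (-1.77 ± 0.21, adjusted p = 5.45e-06) and over the whole course (-2.47 ± 0.21, adjusted p = 4.08e-08). Between those falls it rose from P2 to P7 (1.09 ± 0.21, adjusted p = 0.00295), a call lost without P2 replicate 1 (adjusted p = 0.0505). Adamts19, whose substrates are little known, was 38.2 and 67.0 at E18.5, 52.9 and 46.0 at P0.5, 71.8 and 56.8 at P2, 56.7 and 79.3 at P7, 4.72 and 4.79 at P28, and 4.43 at P56. Every library up to P7 was above the P28 and P56 libraries, and the fall from P7 to P28 was -3.56 ± 0.29 (adjusted p = 4.54e-08). Adamts12, an enzyme that cleaves cartilage oligomeric matrix protein, was 52.5 and 61.8 at E18.5, 17.3 and 15.3 at P0.5, 27.4 and 28.8 at P2, 31.5 and 43.0 at P7, 26.3 and 17.9 at P28, and 2.69 at P56. The E18.5 libraries were the highest, with a fall of -1.75 ± 0.28 across birth (adjusted p = 3.29e-04).

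Adamts2 and Adamts10 rose in fibroblasts from P7 to P28. Adamts2, which removes the N-propeptide of fibrillar procollagens, was 82.6 and 75.1 at E18.5, 87.8 and 119 at P0.5, 107 and 99.5 at P2, 71.7 and 87.3 at P7, 219 and 157 at P28, and 109 at P56. The P28 libraries were above all others, with a rise from P7 of 1.22 ± 0.22 (adjusted p = 4.89e-04). Adamts10, a fibrillin-binding enzyme, was 124 and 126 at E18.5, 105 and 101 at P0.5, 74.6 and 59.8 at P2, 59.3 and 56.8 at P7, 132 and 126 at P28, and 196 at P56. The P2 and P7 libraries were below all others, and the rise from P7 to P28 was 1.13 ± 0.19 (adjusted p = 2.92e-04). Its fall from P0.5 to P2 (-0.62 ± 0.19, adjusted p = 0.0337) was lost without any of the 4 libraries (adjusted p from 0.0558 to 0.264). In epithelium Adamts10 was 33.1 and 31.2 at E18.5 and 11.6 and 10.9 at P28, a fall of -1.44 ± 0.26 (adjusted p = 0.00117), with the P28 libraries below all others. Adamts7, which also cleaves cartilage oligomeric matrix protein, did not exceed 7.52 in fibroblasts. It fell from P7 to P28 (-2.05 ± 0.51, adjusted p = 0.0069), a call lost without P7 replicate 2 (adjusted p = 0.0648) or P28 replicate 1 (adjusted p = 0.0802). Adamts7 reached the level needed for the test only at P2 and P7, and its adjusted p with no filter was 0.0392.

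**Figure D4:**
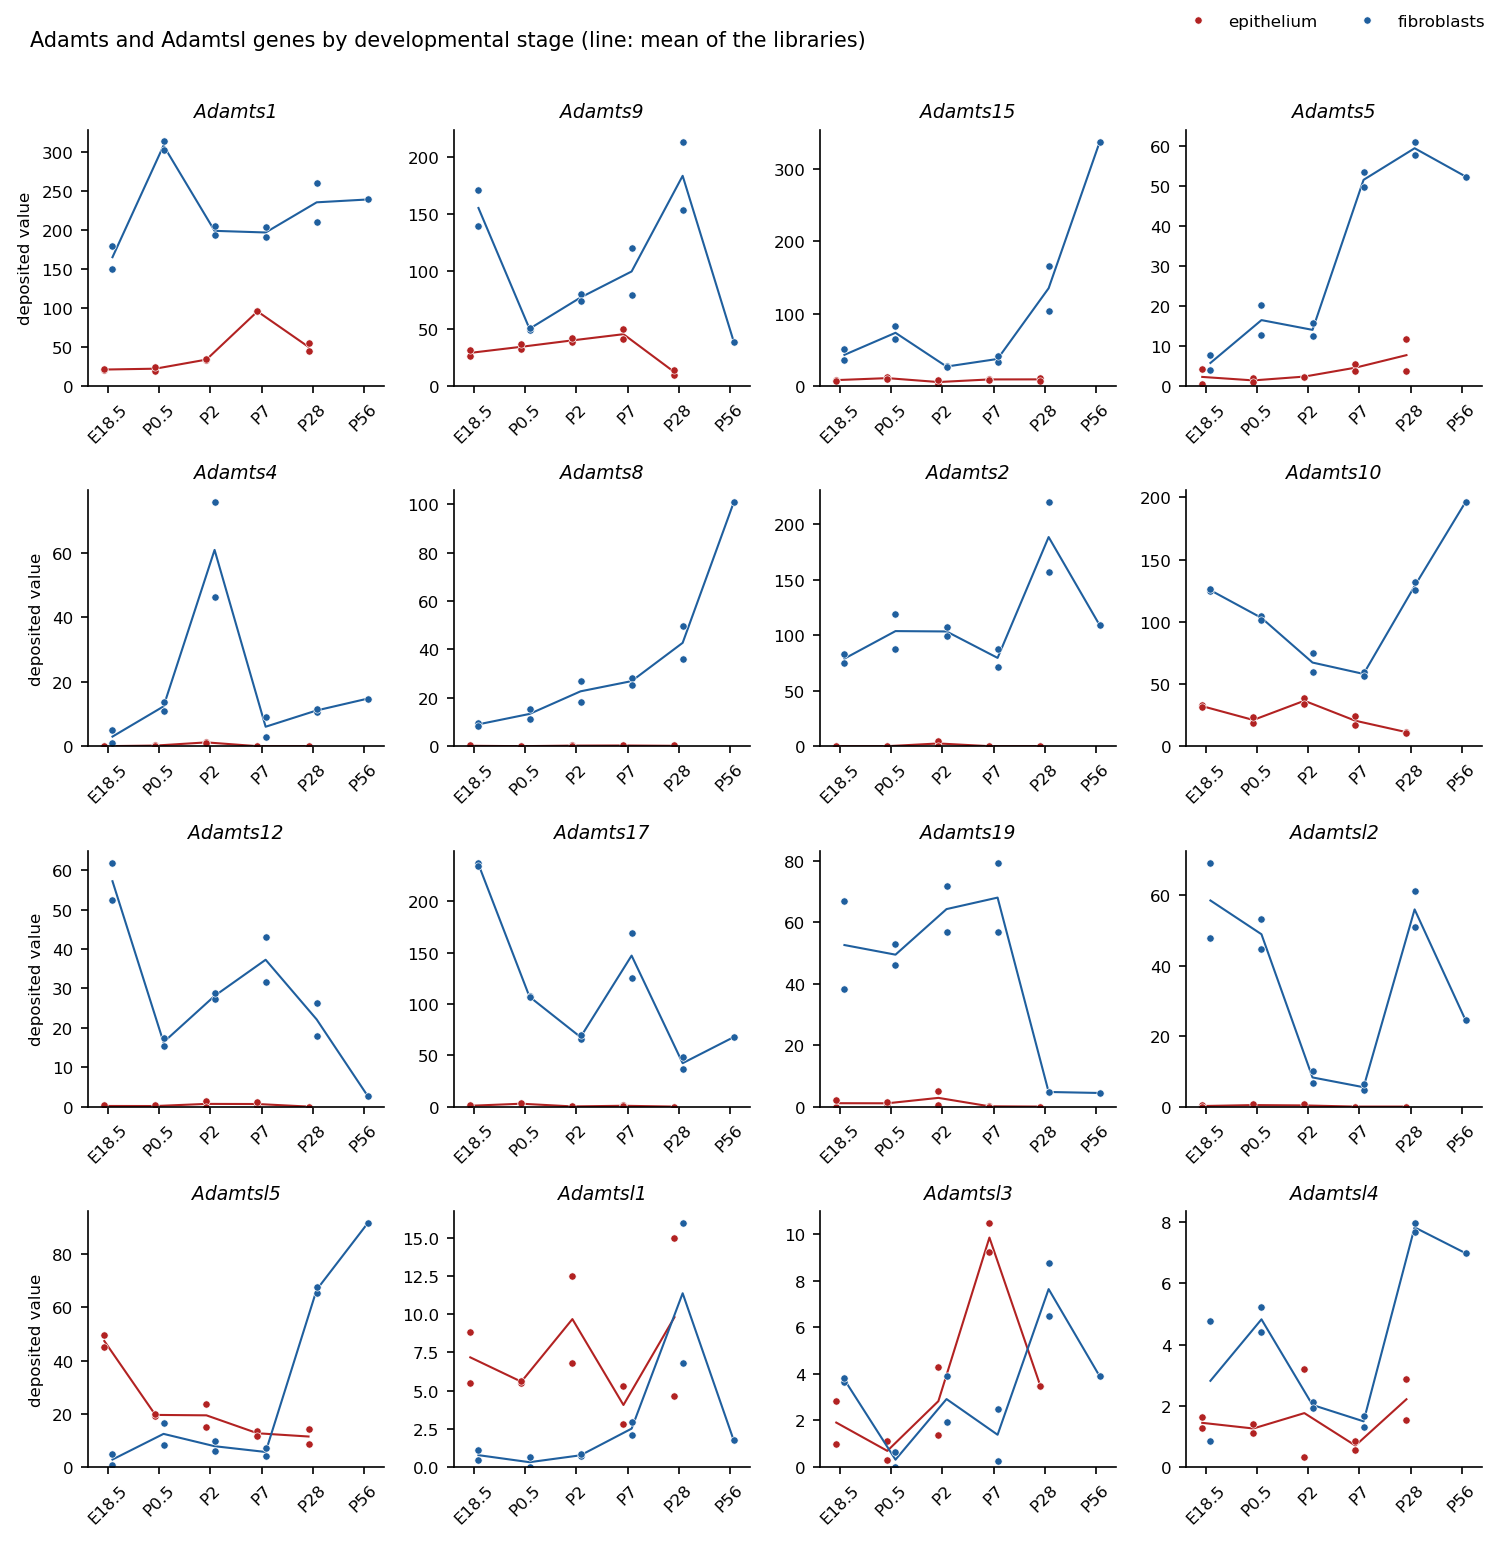
Normalised tag counts of 11 Adamts and 5 Adamtsl genes by stage, on linear axes that start at 0 and differ between panels; red is epithelium, blue is fibroblasts, points are libraries and lines join stage means. Fibroblast Adamts4 peaks at P2 (46.2 and 75.7), Adamts19 drops to 4.72 and 4.79 at P28, and Adamtsl5 lies at 65.6 and 67.8 in fibroblasts at P28.

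The ADAMTS-like genes without protease activity changed strongly in fibroblasts. Adamtsl2, a microfibril protein that binds latent transforming growth factor beta binding protein 1, was 69.1 and 47.8 at E18.5, 53.2 and 44.5 at P0.5, 9.95 and 6.58 at P2, 4.73 and 6.26 at P7, 50.8 and 61.0 at P28, and 24.4 at P56. The P2 and P7 libraries were below all others. Adamtsl2 fell from P0.5 to P2 (-2.45 ± 0.29, adjusted p = 1.24e-05) and rose from P7 to P28 (3.14 ± 0.29, adjusted p = 2.8e-07), and it did not exceed 0.848 in epithelium. Adamtsl5, another microfibril-binding member at GRCm38 chromosome 10, 80339110 to 80348412, had opposite courses in the cell types. In epithelium it was 49.6 and 45.1 at E18.5, 19.1 and 20.1 at P0.5, 23.7 and 15.2 at P2, 13.6 and 11.8 at P7, and 14.3 and 8.64 at P28. In fibroblasts it was 4.78 and 0.853 at E18.5, 16.7 and 8.23 at P0.5, 6.04 and 9.60 at P2, 4.20 and 7.10 at P7, 65.6 and 67.8 at P28, and 91.7 at P56. The epithelial E18.5 libraries were above all later ones, and the fibroblast P28 and P56 libraries above all earlier ones. Over the whole course Adamtsl5 fell in epithelium (-1.99 ± 0.30, adjusted p = 2.68e-04) and rose in fibroblasts (4.37 ± 0.46, adjusted p = 7.02e-07). Its epithelial fall across birth (-1.23 ± 0.30, adjusted p = 0.0151) was lost without E18.5 replicate 1 (adjusted p = 0.0816), P0.5 replicate 1 (adjusted p = 0.0977) or P0.5 replicate 2 (adjusted p = 0.0853). The fibroblast rise across birth (1.97 ± 0.46, adjusted p = 0.0071) was lost without E18.5 replicate 2 (adjusted p = 0.129) or P0.5 replicate 1 (adjusted p = 0.126).

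Adamtsl1, also called punctin, was 1.12 and 0.427 at E18.5 in fibroblasts, at most 2.92 at P0.5, P2 and P7, 6.79 and 16.0 at P28, and 1.75 at P56. Both P28 libraries were above all others (E18.5 to P28, 2.72 ± 0.53, adjusted p = 5.94e-04). Adamtsl1 entered the fibroblast test only through these P28 libraries and was not tested without either of them; with no filter on low values its adjusted p from E18.5 to P28 was 0.0103. The step from P7 to P28 (1.72 ± 0.53, adjusted p = 0.0273) was lost without P7 replicate 1 (adjusted p = 0.141) or P7 replicate 2 (adjusted p = 0.0618). It was also lost with no filter (adjusted p = 0.0759), with a pseudocount of 0.5 (adjusted p = 0.0609) and by DESeq2 (adjusted p = 0.088). In epithelium Adamtsl1 ranged from 2.80 to 15.0 with no change past the test. Adamtsl3 was 0.263 and 2.51 at P7 and 6.50 and 8.77 at P28 in fibroblasts. Its rise (2.02 ± 0.55, adjusted p = 0.012) was lost without P7 replicate 1 (adjusted p = 0.172) or P28 replicate 2 (adjusted p = 0.0927), and its fall across birth (-1.89 ± 0.55, adjusted p = 0.0245) without any of the 4 libraries (adjusted p from 0.0571 to 0.215).

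The change from E18.5 to P28 differed between the cell types for 17 of 32 tested members, against 15.1% of all genes. The epithelial change was below the fibroblast change for 14 of them (9.85% of all genes) and above it for 3 (5.23%). The largest such differences, as epithelial minus fibroblast change in log2 CPM, were those of Adamtsl5 (-6.41 ± 0.61, adjusted p = 3.79e-07), Mmp3 (-4.58 ± 0.57, adjusted p = 9.92e-06) and Mmp23 (-3.70 ± 0.65, adjusted p = 4.84e-04). Mmp14 fell further in epithelium than in fibroblasts (-2.99 ± 0.26, adjusted p = 1.12e-07). Timp3 (-2.81 ± 0.30, adjusted p = 1.48e-06) and Timp2 (-2.65 ± 0.30, adjusted p = 3.25e-06) both gained in fibroblasts relative to epithelium. Adamts9 (-1.53 ± 0.34, adjusted p = 0.00365) and Adamts10 (-1.55 ± 0.30, adjusted p = 0.0013) fell in epithelium, while their fibroblast differences from E18.5 to P28 did not pass the test (0.23 and 0.04). Mmp15 had the higher change in epithelium (2.73 ± 0.59, adjusted p = 0.00282), a call not made by edgeR (adjusted p = 0.106) or DESeq2 (adjusted p = 0.0651). The positive values of Adamts17 (1.66 ± 0.48, adjusted p = 0.0216) and Adamts19 (2.30 ± 0.73, adjusted p = 0.0379) turned negative on the reads, to -1.93 and -1.44 by edgeR and -1.28 and -0.78 by DESeq2, none past the test. Both genes were near 0 in epithelium, with Adamts17 at 0.324 and 1.26 and Adamts19 at 0 and 2.21 at E18.5, and all 4 values 0 at P28. By either count model 10 members differed, all with the lower epithelial change, against 10.3% of all genes by edgeR (6.81% lower) and 11.7% by DESeq2 (7.9% lower). Mmp3 was not among those called (adjusted p = 1 by edgeR and 0.072 by DESeq2).

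Across birth the change differed between cell types for 4 of 32 members, 2 each way, against 3.53% of all genes (1.55% higher in epithelium and 1.97% lower). Mmp14 (-1.45 ± 0.26, adjusted p = 0.00353) and Adamtsl5 (-3.19 ± 0.61, adjusted p = 0.00623) had the lower epithelial change. Adamts9 (1.84 ± 0.34, adjusted p = 0.00454) and Adamts17 (2.22 ± 0.48, adjusted p = 0.0115) had the lower fibroblast change. The Adamts17 call was lost without epithelial E18.5 replicate 1 (adjusted p = 0.0516), epithelial P0.5 replicate 2 (adjusted p = 0.0655) or fibroblast P0.5 replicate 2 (adjusted p = 0.0575).

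The single P56 fibroblast library stood apart from P28 for 12 of 30 members, 5 higher and 7 lower, against 31.2% of all genes (12.2% higher and 19.1% lower), with its spread assumed to be that of the other stages. With CPM and TMM scaling, which moved the median of all genes by 0.19 on the log2 scale, the split was 8 higher and 4 lower. Mmp14 was back to 1869 from 433 and 597 (1.88 ± 0.22, adjusted p = 5.25e-06), and Timp2 reached 2405 from 908 and 983 (1.35 ± 0.21, adjusted p = 8.4e-05). Adamts15 was 338 against 166 and 104 (1.35 ± 0.31, adjusted p = 0.00297). Adamts9 (-2.20 ± 0.28, adjusted p = 1.11e-05) and Adamts12 (-2.63 ± 0.34, adjusted p = 1.41e-05) were lower at P56. Adamts8 (1.24 ± 0.36, adjusted p = 0.0126) was higher with both P28 libraries but not without P28 replicate 2 (adjusted p = 0.077). Other calls also rested on 1 P28 library: Mmp11 (1.95 ± 0.61, adjusted p = 0.0208), Timp1 (-1.76 ± 0.55, adjusted p = 0.0194) and Adamts2 (-0.76 ± 0.27, adjusted p = 0.0368) were lost without P28 replicate 1 (adjusted p = 0.0837, 0.0948 and 0.206), and Adamtsl2 (-1.16 ± 0.36, adjusted p = 0.0195) and Mmp16 (-1.62 ± 0.58, adjusted p = 0.0412) without P28 replicate 2 (adjusted p = 0.0878 and 0.214). Chchd10, which overlaps Mmp11 on the opposite strand, was 1.48 and 1.20 at P28 and 31.1 at P56, and without the counting strand its tags cannot be told apart from those of Mmp11 where they overlap. With 1 library, age and library cannot be told apart.

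The other genes of the same matrix system were taken from a list of 39 activating proteases, further inhibitors, Adam proteases, microfibril partners and proteoglycan substrates. In fibroblasts 19 of 32 tested changed from E18.5 to P28, 14 higher and 5 lower, against 33.6% of all genes (18.7% higher and 14.9% lower). In epithelium 14 of 30 changed, 4 higher and 10 lower, against 24.9% of all genes (13.5% higher and 11.3% lower). Dcn, the small proteoglycan decorin, was 382 and 369 at E18.5 and 7291 and 11433 at P28 in fibroblasts (4.60 ± 0.21, adjusted p = 1.13e-11). Pcsk5, a proprotein convertase, rose there from 63.5 and 45.2 to 404 and 293 (2.66 ± 0.25, adjusted p = 1.16e-07). Pcolce, which enhances procollagen C-proteinase, rose by 1.81 ± 0.17 (adjusted p = 1.33e-07), and the protease inhibitor Serping1 rose as well (1.33 ± 0.17, adjusted p = 7.97e-06). Adam12 was 135 and 169 at E18.5, 11.6 and 13.1 at P0.5, 145 and 131 at P2, 144 and 109 at P7, and 7.97 and 5.58 at P28, low at P0.5 and P28 and high between them (E18.5 to P28, -4.31 ± 0.26, adjusted p = 4.23e-10). In epithelium Thsd4, an ADAMTS-like microfibril protein whose symbol lies outside the name pattern, rose from 12.0 and 6.00 to 70.3 and 96.5 (3.13 ± 0.32, adjusted p = 1.13e-05). Fibrillin 2 (Fbn2) fell in both cell types (epithelium -3.05 ± 0.35, adjusted p = 2.99e-05; fibroblasts -3.54 ± 0.50, adjusted p = 2.09e-05).

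The remaining members were low. In neither cell type did 12 of the 46 reach the level needed for the test, 3 normalised tag counts in at least 2 libraries: Adamts3, Adamts14, Adamts16, Adamts18, Adamts20, Mmp8, Mmp9, Mmp13, Mmp17, Mmp24, Mmp27 and Mmp28. Among them are the gelatinase Mmp9, above 0 in 1 of 11 fibroblast libraries at 1.18, and the collagenase Mmp13, which did not exceed 2.30. Mmp24 was 0 in all 10 epithelial libraries, and a 0 in 1 library allows up to 0.403 to 1.37 normalised tag counts at these depths. Those limits cover counting error only. Adamts13, the protease of von Willebrand factor, lay between 3.86 and 10.4 in epithelium and between 2.92 and 11.5 in fibroblasts with no change past the test in either.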

How the data were processed

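Lung epithelial cells and fibroblasts of 6 stages were measured in 21 libraries. Per the labels' protocols, polyA RNA was amplified and sequenced by 3'SAGE-seq on an Ion Proton instrument; the submitters' processing notes name Bowtie2 2.2.5, R 3.4.0 and build mm10. The deposited signal values are tag counts that the authors had divided by 1 constant per library: within 0.01 reads, every value was a whole multiple of the smallest step, and these whole reads were recovered. Depths ranged from 2146071 to 5729829 reads.

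Stage comparisons were fitted per cell type with limma 3.58.1 (R 4.3.3, mean-variance trend) on log2(deposited value + 1), for 12143 epithelial and 11954 fibroblast genes with at least 3 in 2 or more libraries. Comparisons of cell types and of their changes used log2(CPM + 1) of the recovered reads over 20004 shared genes with TMM scaling (13386 tested). Fold changes on these scales understate those of low genes. Residual degrees of freedom were 5, 5 and 10. Alternatives were pseudocounts of 0.5 and 4, no filter, a filter at 10, edgeR 4.0.16 (quasi-likelihood) and DESeq2 1.42.0 on the reads, other scaling, a replicate block and leaving out each library. The fits were first tested on simulated data.

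Positions are from GENCODE (GRCm38, the same assembly as mm10) and promoters from RefSeq (GRCm38.p6). Named genes were the Timp genes, members with a mean of at least 50 in a group, up to 4 changed members per direction and comparison by smallest p, every member whose change from E18.5 to P28 differed between cell types, and up to 2 partner genes per group. The members and lists were chosen with earlier results of these data known.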

Additional observations from a re-analysis of the deposited data

Results flagged for a closer look

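The members below were singled out because the test of the difference itself, an interaction term fitted by limma over both cell types, found that their change over time was not the same in epithelium and fibroblasts. Values are epithelial minus fibroblast change in log2 CPM. From E18.5 to P28 the epithelial change was lower for Adamtsl5 (-6.41), Mmp3 (-4.58), Mmp23 (-3.70), Mmp14 (-2.99), Timp3 (-2.81), Timp2 (-2.65), Mmp16 (-2.55), Adamtsl1 (-2.51), Timp1 (-2.32), Adamts8 (-2.16), Mmp2 (-1.74), Adamts15 (-1.56), Adamts10 (-1.55) and Adamts9 (-1.53). It was higher for Mmp15 (2.73), Adamts19 (2.30) and Adamts17 (1.66). From E18.5 to P0.5 it was lower for Adamtsl5 (-3.19) and Mmp14 (-1.45) and higher for Adamts17 (2.22) and Adamts9 (1.84).

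Some of these calls were lost when 1 library was left out or under another model. Over the whole course Adamts15 was lost without epithelial E18.5 replicate 1 (adjusted p = 0.0918), epithelial P28 replicate 2 (0.125), fibroblast E18.5 replicate 1 (0.117) or fibroblast P28 replicate 1 (0.145). Adamtsl1 was lost without epithelial E18.5 replicate 2 (adjusted p = 0.0763), epithelial P28 replicate 1 (0.142), fibroblast E18.5 replicate 2 (0.0815) or fibroblast P28 replicate 2 (0.11). Mmp2 was lost without either fibroblast E18.5 library (adjusted p = 0.0578 and 0.0664), epithelial E18.5 replicate 1 (0.0869), epithelial P28 replicate 1 (0.0891) or fibroblast P28 replicate 1 (0.111). Adamts17 was lost without either fibroblast E18.5 library (adjusted p = 0.0599 and 0.0575), epithelial E18.5 replicate 1 (0.104), epithelial P28 replicate 1 (0.0515) or fibroblast P28 replicate 1 (0.0893). Adamts19 was lost without either P28 library of epithelium (adjusted p = 0.0873 and 0.0832) or of fibroblasts (0.0853 and 0.0784), epithelial E18.5 replicate 1 (0.203) or fibroblast E18.5 replicate 2 (0.148). By edgeR and DESeq2 on the reads, Adamts8 (adjusted p = 0.613 and 0.601), Mmp2 (0.712 and 0.7) and Timp1 (1 and 0.492) were not called. The Adamts17 call across birth was lost without the libraries named beside it above.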

How the results depend on the processing

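With no filter on low values, the count of changed members was 1 in epithelium from P0.5 to P2 (2 with the filter), 5 in fibroblasts from E18.5 to P0.5 (12 with it) and 6 from P0.5 to P2 (10 with it). The shares of all genes called with no filter, or with 1 library left out, are not given here. These drops in the counts therefore cannot be read as particular to the members. The whole-course difference between cell types was called for 10 members by edgeR and 10 by DESeq2, against 17 by limma. There Adamts17 turned to -1.93 by edgeR (adjusted p = 0.485) and -1.28 by DESeq2 (0.73), and Adamts19 to -1.44 (0.686) and -0.78 (0.863), and the cause was not tested. All other counts stayed within 1.5 times under the pseudocounts, filters, models and scalings run.

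Leaving out 1 library at a time gave, in epithelium, 2 to 3 members from E18.5 to P0.5, 1 to 2 from P0.5 to P2, 2 to 3 from P2 to P7, 2 to 4 from P7 to P28 and 9 to 11 from E18.5 to P28. In fibroblasts the same steps gave 6 to 9, 4 to 5, 3 to 5, 12 to 16 and 16 to 19, and P28 to P56 gave 8 to 10. The cell-type comparison gave 27 to 29, and the differences in change gave 12 to 16 from E18.5 to P28 and 3 to 6 from E18.5 to P0.5.

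With the replicate number as a block, the epithelial counts were 3, 2, 3, 5 and 11, the fibroblast counts 11, 10, 5, 19, 20 and 13, and those between cell types 28, 17 and 4. Within each cell type the numbers showed no pairing between stages. The correlation between stages of the replicate 1 minus 2 differences ran from -0.116 to 0.166 in epithelium, over 10 pairs of stages. In fibroblasts it ran from -0.0754 to 0.0595, also over 10 pairs. Epithelial and fibroblast libraries of the same stage and number were not compared, so a pairing between the cell types was not checked. Among named genes, the block lost Adamts15 across birth in fibroblasts (adjusted p = 0.0525), Mmp16 from P28 to P56 (0.0644) and the partner gene Serpine2 from E18.5 to P28 in epithelium (0.053).

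Of 167 calls of named genes, 112 held under every setting in which the gene was tested. Of the calls, 47 were lost without at least 1 library and 40 under at least 1 other setting. A setting in which a gene left the test, such as Mmp12 without either P28 library, was not counted as a loss. Leaving out TMM scaling moved the median difference in change from E18.5 to P28 over all genes by 0.18 on the log2 scale, and the members' split was then 3 higher and 13 lower. With CPM and TMM scaling, the P56 calls of Adamts2 (adjusted p = 0.126), Adamtsl2 (0.0525) and Mmp16 (0.0622) were lost. With 2 libraries a stage, 1 at P56 and members at a few reads, differences of low genes such as Timp4, Mmp12 and Adamts7 are imprecise, and a change that missed the threshold is not shown to be absent.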
